A study of Mus musculus with 5 samples.

Results

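The genes described here are 37 genes of autophagy and the lysosome: the machinery that builds the autophagosome, its cargo receptors, lysosomal membrane proteins, cathepsins, and the transcription factors Tfeb and Tfe3. They were chosen by symbol, and all 37 were found among the 33456 genes counted in each library, of which 33190 are not immunoglobulin genes. The libraries are single-cell RNA sequencing (10x Genomics 3' chemistry) of plasma cells, into which B cells mature to secrete antibody. The cells came from unimmunized male C57Bl6/N mice aged 8 to 12 weeks, with cells of 3 mice pooled per sample, and were sorted in consecutive rounds for high CD138 and absence of Ly6g and CD11c. The sort further divided them by B220 (a CD45 form found on B cells) and by how much of the fluorescent glucose analog 2NBDG they took up. The 5 groups were splenic B220+2NBDG+, splenic B220+2NBDG-, bone marrow B220-2NBDG+, splenic B220-2NBDG+ and splenic B220-2NBDG- plasma cells, with 1 library each, so no comparison between groups had a replicate check.

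Autophagy encloses cytoplasm, including stretches of endoplasmic reticulum, in a double membrane that fuses with the lysosome, where acid hydrolases such as the cathepsins digest the contents. A kinase complex around Ulk1 starts the membrane, a lipid kinase complex around Vps34 marks it, and a conjugation system attaches proteins of the LC3 and GABARAP families to it, which cargo receptors such as Sqstm1 (p62) then bind. In mouse plasma cells, autophagy that depends on Atg5 is known to restrain the endoplasmic reticulum and to sustain long-lived cells.

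Tfeb and Tfe3, the transcription factors among the 37, bind E-boxes of the form CACGTG, and their preferred lysosomal gene element has the core TCACGTGA. These letters read the same on both strands, and every core contains an E-box. RefSeq promoter windows (GRCm38.p6, 250 bases before to 50 bases after a transcript start) were held for 30 of the 37 genes. CACGTG occurred in the windows of 7 of these 30 genes (23.3%; Atg14, Atg3, Atg5, Atg7, Ctsd, Ctsl and Lamp1), against 8.09% of all 27025 genes with a window. TCACGTGA occurred in 2 of the 30 (6.67%; Atg3 and Ctsd), against 1.12% of all genes. Of 134 other genes of the pathway with a window, 26.1% held CACGTG and 14.2% held TCACGTGA. Lamp1 held 4 E-boxes, a number found or exceeded in 8 of 32851 windows (0.0244%). Stretches of 3 windows are shown, that of Lamp1 because the gene differed between the B220 gates and between isotypes, and those of Atg3 and Ctsd because they held the full core. E-boxes are in capitals, and each strand is read 5′ to 3′ towards the transcript start. A match describes letters, not binding.
Lamp1, chr8:13159071-13159160, plus strand: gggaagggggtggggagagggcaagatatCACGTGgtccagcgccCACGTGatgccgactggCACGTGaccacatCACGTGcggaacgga
Atg3, chr16:45158709-45158783, plus strand: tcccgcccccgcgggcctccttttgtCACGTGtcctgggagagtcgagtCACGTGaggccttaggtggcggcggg
Ctsd, chr7:142387910-142387939, minus strand: cctcgcccgcgtctCACGTGacccgttgag

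The libraries held 894 to 1296 barcodes and 9451886 to 15591435 UMIs each, 5476 barcodes in all, and any pair of libraries shared 0 to 4 barcode sequences. Sdc1, which encodes CD138, lay at 402 to 609 CPM, where CPM is UMIs per 1000000 UMIs of non-immunoglobulin genes. The share of UMIs from immunoglobulin genes was lowest in B220+2NBDG- cells (47.0%) and lay between 58.2% and 64.8% in the other libraries. Cells called cycling were 12.5% of B220+2NBDG- cells and at most 1.07% of each other library. The summed macrophage list of 12 genes, given because macrophages are rich in lysosomes, lay at 26.3 to 42.5 CPM in each library, most of it Cd68 (21 to 37.2 CPM). Adgre1, Fcgr1 and Cd14 had 0 UMIs in every library, and Csf1r had 1 UMI in all. A set of 20 genes set B220+2NBDG- and splenic B220-2NBDG+ libraries apart from the other 3 along a line that follows no gate. Every comparison of paired libraries below sets libraries from opposite sides of that line against each other. Within a single such comparison, the line and the gate or tissue cannot be told apart. None of the 37 genes was among the 20, and none differed 1.5-fold along that line.

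All 37 genes were detected in all 5 libraries. By mean CPM over the libraries, 10 genes lay above 100, 16 between 10 and 100, and 11 below 10. Each transcript end counts once in a 3' library whatever the transcript's length, but capture of the end differs between genes, so an order between genes is only approximate. The 37 genes together summed to 4048 CPM in B220+2NBDG+ cells, 3716 in B220+2NBDG- cells, 3299 in bone marrow, 3648 in splenic B220-2NBDG+ cells and 3802 in splenic B220-2NBDG- cells. By this total the sum was highest in B220+2NBDG+ cells and lowest in bone marrow, and bone marrow was the lowest library for 17 of the 37 genes and the highest for 1, Ctsl. That place depends on the total. With TMM factors the sum was 3369 CPM in B220+2NBDG- cells, the lowest, and 3769 in bone marrow, which was lowest for 10 genes and highest for 7. Without Jchain in the total B220+2NBDG- cells were again lowest (4131 CPM, against 4693 in bone marrow), and with all UMIs the same cells were highest (1968 CPM) and bone marrow lowest (1271 CPM). The orders of libraries given next are by non-immunoglobulin UMIs.

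**Figure D1:**
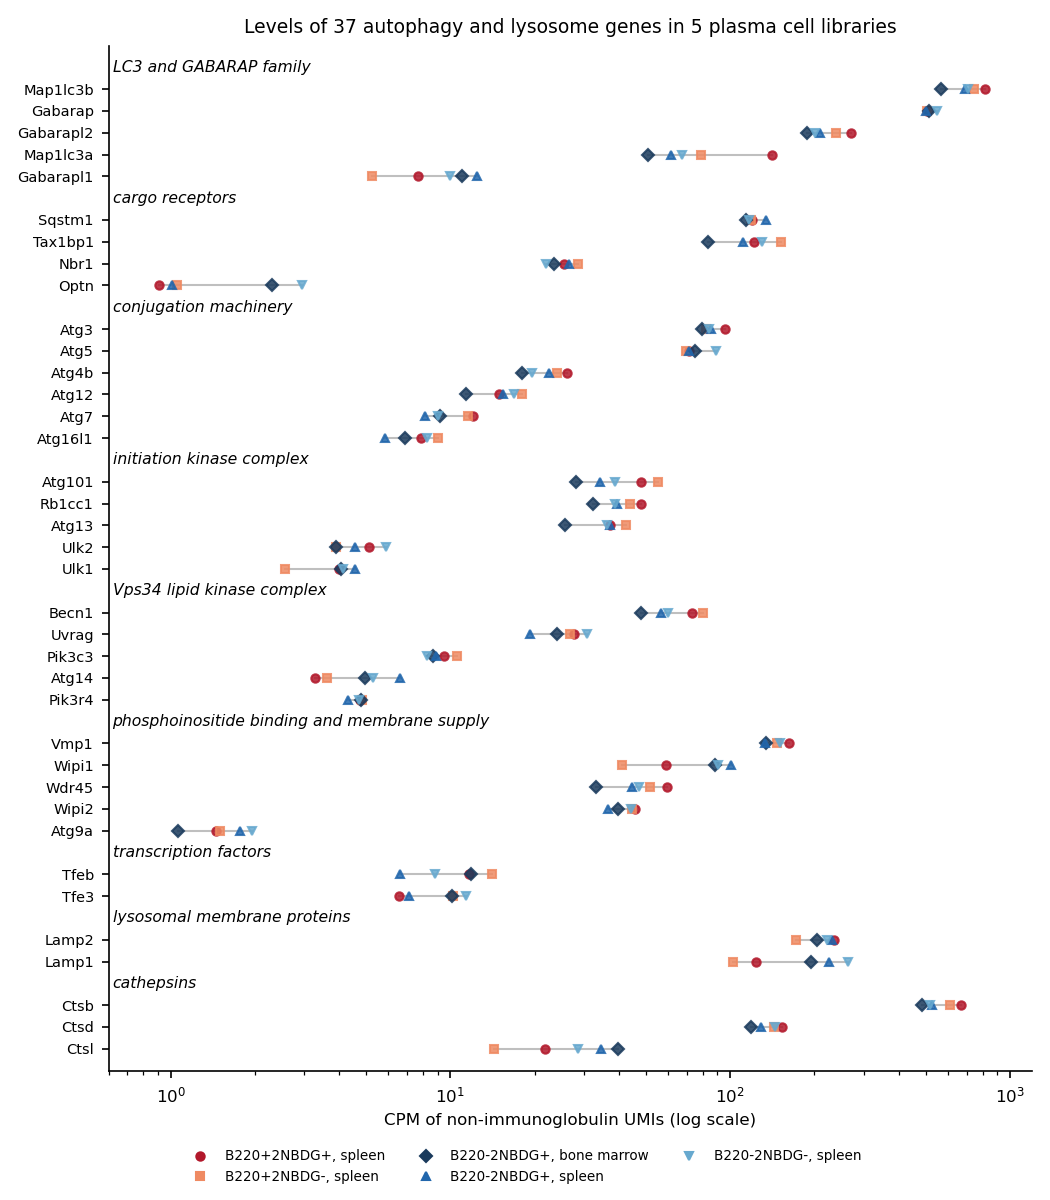
Level of each of the 37 genes (horizontal axis, CPM of non-immunoglobulin UMIs, log scale), grouped by role, with 1 point per library. Points of most genes lie close together; Map1lc3a, Wipi1, Lamp1 and Ctsl, and the scarce Optn, Gabarapl1, Tfeb and Atg14, are spread over more than a 2-fold range.

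Of the LC3 and GABARAP family, the ubiquitin-like proteins that are coupled to the autophagosome membrane, Map1lc3b (LC3B) was the most abundant transcript. It had 814 CPM in B220+2NBDG+ cells, 744 in B220+2NBDG- cells, 567 in bone marrow, 689 in splenic B220-2NBDG+ cells and 709 in splenic B220-2NBDG- cells, with bone marrow lowest. Its mean of 705 CPM placed it at rank 178 among non-immunoglobulin genes. Gabarap was nearly level, with 499.9 to 549 CPM and a ratio of 1.10 between its highest and lowest library. Gabarapl2 had 272 CPM in B220+2NBDG+ cells, 239 in B220+2NBDG- cells, 188 in bone marrow, 209 in splenic B220-2NBDG+ cells and 202 in splenic B220-2NBDG- cells, with both B220+ libraries above the others. Gabarapl1 was scarce, at 5.27 to 12.4 CPM.

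Map1lc3a (LC3A) had a ratio of 2.79 between its highest and lowest library, against 2.35 for the scarce Gabarapl1 and 1.44 for Map1lc3b. It had 142 CPM (95% counting interval 132 to 152) in B220+2NBDG+ cells, 78.6 (72.0 to 85.6) in B220+2NBDG- cells, 50.7 (45.0 to 56.9) in bone marrow, 61.5 (54.0 to 69.8) in splenic B220-2NBDG+ cells and 67.1 (60.2 to 74.6) in splenic B220-2NBDG- cells. B220+2NBDG+ cells stood alone at the top, and their interval overlapped with none of the others. Intervals here and below cover counting error only.

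Among the cargo receptors, which link ubiquitin-tagged or other cargo to LC3 proteins, Sqstm1 varied little. It had 120.1 CPM in B220+2NBDG+ cells, 119 in B220+2NBDG- cells, 114 in bone marrow, 134 in splenic B220-2NBDG+ cells and 117 in splenic B220-2NBDG- cells. Tax1bp1 had 122 CPM in B220+2NBDG+ cells, 153 in B220+2NBDG- cells, 83.3 in bone marrow, 112 in splenic B220-2NBDG+ cells and 129 in splenic B220-2NBDG- cells. Bone marrow was the lowest library for Tax1bp1 under each of these totals, but for Sqstm1 the lowest changed with the total. Nbr1 lay at 22.0 to 28.6 CPM, and Optn (optineurin) was close to the limit of detection, with 44 UMIs over all libraries.

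Of the conjugation machinery, Atg3, the enzyme that transfers LC3 to lipid, averaged 85.4 CPM and Atg5, part of the complex that directs that transfer, 75.3 CPM. Atg5 had 71.1 CPM in B220+2NBDG+ cells, 69.8 in B220+2NBDG- cells, 75.1 in bone marrow, 71.4 in splenic B220-2NBDG+ cells and 89.3 in splenic B220-2NBDG- cells, which stood above the rest. The protease Atg4b, Atg12, the activating enzyme Atg7 and Atg16l1 had means between 7.57 and 22.1 CPM. In the initiation kinase complex, Atg101, Rb1cc1 (FIP200) and Atg13 had means of 35.8 to 40.8 CPM, while the kinases were scarce: Ulk1 averaged 3.86 CPM (101 UMIs in all) and Ulk2 4.67 CPM. Of the Vps34 complex, Becn1 (Beclin 1) had 73.1 CPM in B220+2NBDG+ cells, 79.9 in B220+2NBDG- cells, 48.2 in bone marrow, 56.7 in splenic B220-2NBDG+ cells and 60.0 in splenic B220-2NBDG- cells. Both B220+ libraries lay above the 3 B220- libraries. Uvrag averaged 25.7 CPM, and the kinase Pik3c3 (Vps34), Atg14 and Pik3r4 9.16, 4.75 and 4.67 CPM.

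Vmp1, a membrane protein of the endoplasmic reticulum needed for autophagosome formation, lay at 133 to 162 CPM with little spread. The transcription factors were near 10 CPM: Tfeb had 11.7 CPM in B220+2NBDG+ cells, 14.1 in B220+2NBDG- cells, 11.9 in bone marrow, 6.58 in splenic B220-2NBDG+ cells and 8.83 in splenic B220-2NBDG- cells. Tfe3 had 6.56, 10.2, 10.1, 7.09 and 11.4 CPM in the same order. The lowest library was splenic B220-2NBDG+ for Tfeb and B220+2NBDG+ for Tfe3. At 26 to 94 UMIs per library these values carry wide counting intervals. Lamp2, a lysosomal membrane glycoprotein, lay at 173 CPM in B220+2NBDG- cells and at 205 to 234 CPM in the other libraries. Ctsb, the cysteine protease cathepsin B, had 671 CPM in B220+2NBDG+ cells, 612 in B220+2NBDG- cells, 484 in bone marrow, 526 in splenic B220-2NBDG+ cells and 518 in splenic B220-2NBDG- cells. The aspartic protease Ctsd (cathepsin D) lay at 119 to 153 CPM.

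Which of the 37 genes differed between the gates was read from the ratio of CPM between the paired libraries. To count, a gene needed a ratio of 1.5 or more and, in the library where it was higher, no fewer than 25 CPM and 50 UMIs; 22 to 24 of the 37 reached those levels in each comparison. The least abundant genes are thus left out of the counts.

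Lamp1, the other major glycoprotein of the lysosomal membrane (ENSMUSG00000031447, chromosome 8, 13159161 to 13175338, plus strand, GRCm38), was lower in the B220+ than in the B220- libraries. It had 124 CPM (114 to 133) in B220+2NBDG+ cells and 102 (94.8 to 110) in B220+2NBDG- cells, against 195 (184 to 207) in bone marrow, 226 (211 to 241) in splenic B220-2NBDG+ cells and 265 (251 to 279) in splenic B220-2NBDG- cells. The B220+ and B220- libraries did not overlap, which was also the case for other listed genes named below. Among 2NBDG+ splenic cells, Lamp1 was 1.83-fold lower in B220+ than in B220- cells (95% counting interval 1.65 to 2.02), and among 2NBDG- cells 2.59-fold lower (2.36 to 2.84).

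Wipi1, a phosphoinositide-binding protein of the forming autophagosome, and Ctsl, the cysteine protease cathepsin L, were also lower in both B220+ than in all 3 B220- libraries. Wipi1 had 58.9 CPM in B220+2NBDG+ cells and 41.2 in B220+2NBDG- cells, against 88.3 in bone marrow, 100.5 in splenic B220-2NBDG+ cells and 90.3 in splenic B220-2NBDG- cells. Ctsl had 21.9 and 14.3 CPM in the same B220+ libraries, against 39.7, 34.7 and 28.6 CPM in the same B220- libraries, from 95 to 224 UMIs per library. Neither gene's B220+ and B220- libraries overlapped. Many other listed genes were separated as well. Atg5, Gabarapl1, Atg14 and Ulk1 were lower in both B220+ libraries than in every B220- library. Map1lc3b, Ctsb, Becn1, Atg101, Map1lc3a, Gabarapl2, Wdr45, Rb1cc1, Wipi2, Atg4b, Atg7 and Pik3c3 were higher in both. Some margins were narrow, such as 71.1 against 71.4 CPM between the nearest libraries for Atg5. Separation was thus common in the list and does not by itself set Lamp1, Wipi1 and Ctsl apart. The share of all genes separated in this way was not counted. Among 2NBDG+ cells Wipi1 was 1.71-fold lower in B220+ cells (1.47 to 1.98) and Ctsl 1.59-fold lower (1.23 to 2.04); among 2NBDG- cells Wipi1 was 2.19-fold lower (1.88 to 2.55) and Ctsl 2.00-fold lower (1.54 to 2.62).

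**Figure D2:**
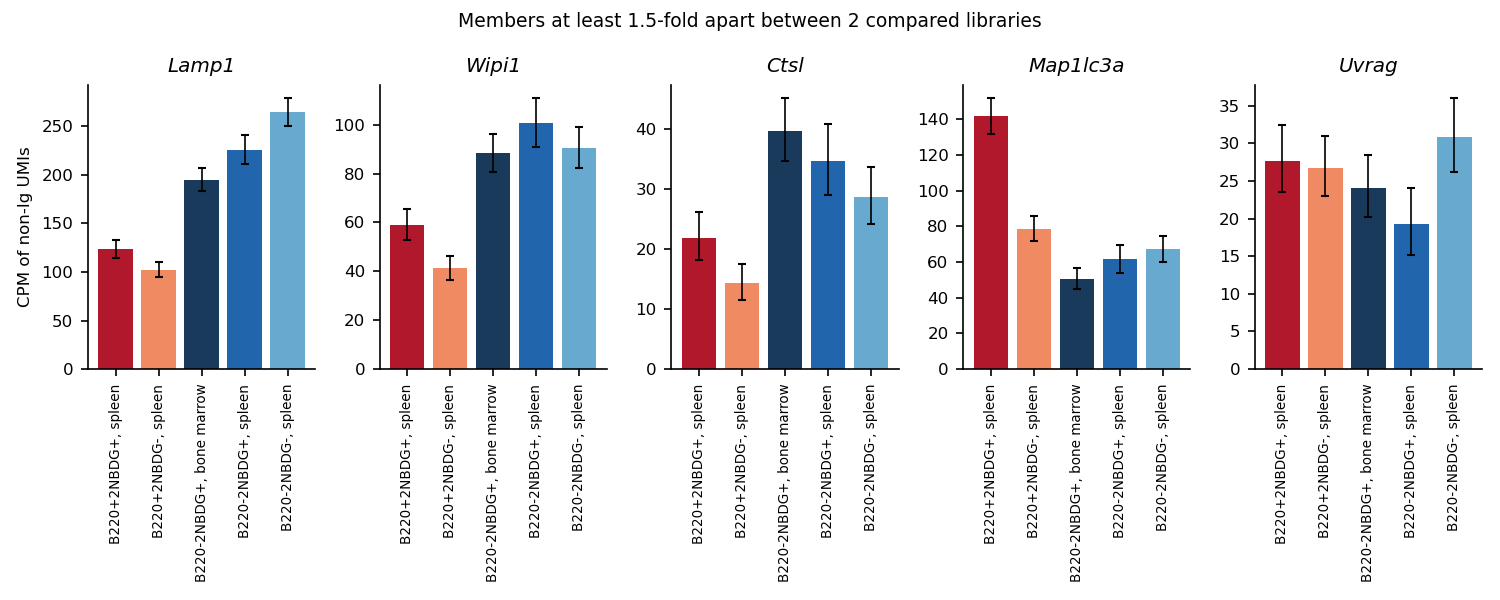
Level of the 5 genes at least 1.5-fold apart in some library comparison (vertical axis, CPM of non-immunoglobulin UMIs; bars start at 0). Bars are single libraries and error bars are exact 95% counting intervals; Lamp1, Wipi1 and Ctsl are lower in both B220+ libraries (red and orange) than in the 3 B220- libraries (blue), and Map1lc3a is highest in B220+2NBDG+ cells.

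Of 24 genes compared between B220+ and B220- cells among 2NBDG+ splenic cells, 1 (Map1lc3a) was counted as higher and 3 (Lamp1, Wipi1 and Ctsl) as lower. Of all 3715 genes compared, 9.02% were higher and 3.77% lower. Map1lc3a was 2.30-fold higher in B220+2NBDG+ cells (1.99 to 2.67), the library that this comparison shares with that of 2NBDG in B220+ cells. Of 23 genes compared among 2NBDG- splenic cells, 0 were higher and 3 (the same 3) were lower, while of all 4016 genes 21.0% were higher and 6.37% lower. The median log2 ratio was 0.02 for these 23 genes and 0.24 for all genes there, and 0.23 for the 24 genes and 0.14 for all genes among 2NBDG+ cells. Without cells called cycling, the medians among 2NBDG- cells lay closer together, at 0.14 for the listed genes and 0.18 for all genes. Tax1bp1, Gabarapl2 and Ctsb had log2 ratios of 0.13, 0.38 and 0.35 among 2NBDG+ cells and 0.24, 0.24 and 0.24 among 2NBDG- cells, without reaching 1.5-fold. Atg101 had 0.49 and 0.51 and Becn1 0.37 and 0.41, the highest ratios among 2NBDG- cells, while Uvrag had 0.53 among 2NBDG+ and -0.20 among 2NBDG- cells.

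The B220 comparisons share no library with each other, and the 2 B220+ libraries were also set against the 3 B220- libraries with edgeR's quasi-likelihood test. This test was added after the data were seen, and no label says that libraries came from separate animals, so its p-values measure the spread between these 5 libraries. It called 17 of 9881 genes (0.172%) at an adjusted p of 0.05 and 0 of 36 genes of the list that could be tested; 8 of the 36 and 1777 of all genes had an unadjusted p below 0.05. Lamp1 came closest (log2 fold change -1.19 ± 0.17 SE, Benjamini-Hochberg adjusted p 0.0676 in edgeR, lower in 2 of 2 B220+ libraries), followed by Wipi1 (-1.08 ± 0.21, adjusted p 0.0907). Ctsl (-1.12 ± 0.28) had an adjusted p of 0.133 and Map1lc3a (0.71 ± 0.26) of 0.222 in edgeR. Without the B220+2NBDG+ library, edgeR called 585 genes (5.64%), among them Lamp1 (adjusted p 0.0131), Wipi1 (0.0138) and Ctsl (0.0416); without any other single library it called 0 genes of the list, and 4 (without B220+2NBDG-), 1 (without bone marrow), 0 (without splenic B220-2NBDG+) and 14 (without B220-2NBDG-) of all genes.

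The share of IgM, IgG and IgA cells differed between the libraries: IgM cells were 39.2% of B220+2NBDG+ cells, 58.2% of B220+2NBDG- cells, 31.3% of bone marrow cells, and 62.4% and 83.3% of splenic B220-2NBDG+ and B220-2NBDG- cells. The genes were therefore also read within each isotype. In IgM cells Lamp1 had 151 and 122 CPM in B220+2NBDG+ and B220+2NBDG- cells, against 343, 278 and 301 CPM in bone marrow, splenic B220-2NBDG+ and splenic B220-2NBDG- cells. In IgG cells it had 110.5 and 81.2 CPM against 192, 193 and 143 CPM in the same order, and in IgA cells 71.7 and 56.4 CPM against 104, 108 and 84.1 CPM. The B220+ libraries lay below every B220- library in each isotype. The IgA values rest on only 35 and 23 UMIs against 321, 107 and 49 UMIs, and the IgG value of 143 CPM on 45 UMIs. Counting intervals are not given within isotypes.

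Wipi1 was also below every B220- library in both B220+ libraries among IgM cells, with 65.5 and 43.1 CPM in B220+2NBDG+ and B220+2NBDG- cells against 121, 116 and 93.5 CPM in the B220- libraries in the same order. The same held among IgG cells, with 54.7 and 34.4 against 92.5, 80.6 and 92.1 CPM. In IgA cells its libraries overlapped (47.1 and 66.2 against 68.2, 71.9 and 61.8 CPM). Ctsl was lower in both B220+ libraries among IgM cells (25.5 and 16.2 against 27.1, 34.6 and 31.2 CPM). There the B220+2NBDG+ and bone marrow values, 25.5 and 27.1 CPM, lie close and rest on 56 and 51 UMIs. The IgG and IgA values of Ctsl overlapped and rest on 3 to 147 UMIs each. The log2 ratio of Ctsl was -0.44 among 2NBDG+ and -0.94 among 2NBDG- IgM cells, under 1.5-fold among 2NBDG+ cells.

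For 2NBDG uptake, 23 of the genes were compared in B220+ and 23 in B220- splenic cells. In B220+ cells 1 gene, Map1lc3a, was higher in 2NBDG+ cells and 0 were lower; of all 3979 genes 3.62% were higher and 14.4% lower. Map1lc3a had 142 CPM from 777 UMIs in B220+2NBDG+ cells and 78.6 CPM from 522 UMIs in B220+2NBDG- cells, a 1.80-fold difference (1.61 to 2.02). Within isotypes it had 118 against 66.9 CPM in IgM cells and 167 against 84.9 CPM in IgG cells, but 107 against 145 CPM in IgA cells, which is the opposite direction. Without cells called cycling its log2 ratio was 0.65 in place of 0.85. Wipi1 (0.51) and Lamp2 (0.44) had the next highest log2 ratios, and Tax1bp1 the lowest (-0.32). The median log2 ratio was 0.11 for the 23 genes and -0.17 for all genes. Without cells called cycling these medians were 0.07 and -0.12.

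In B220- splenic cells 0 genes were higher with 2NBDG uptake and 1 was lower, against 1.98% and 5.21% of all 3684 genes. Uvrag, a partner of Becn1 in the Vps34 complex of later autophagy and endosome steps, had 19.2 CPM from 76 UMIs in B220-2NBDG+ cells and 30.8 CPM from 157 UMIs in B220-2NBDG- cells. That is 1.60-fold lower (1.21 to 2.13), and in IgM cells it had 18.5 against 32.1 CPM. Map1lc3a, the gene set apart in B220+ cells, had 61.5 CPM in splenic B220-2NBDG+ and 67.1 CPM in splenic B220-2NBDG- cells, with counting intervals that overlap. The median log2 ratio was -0.08 for the 23 genes and -0.09 for all genes.

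Between bone marrow and splenic B220-2NBDG+ cells, 0 of 22 genes reached 1.5-fold in either direction, against 2.24% higher and 6.31% lower of all 3488 genes. Their median log2 ratio was -0.19, against -0.16 for all genes. The lowest was Atg13, a subunit of the initiation complex (25.7 CPM in bone marrow, 37.2 CPM in spleen, log2 ratio -0.53), followed by Wdr45 (33.1 and 44.6 CPM, -0.43) and Tax1bp1 (83.3 and 112 CPM, -0.42). Ctsl had the highest ratio (39.7 and 34.7 CPM, 0.19). Lamp1 was at -0.21 over all cells, 0.30 in IgM cells, -0.01 in IgG cells and -0.06 in IgA cells; bone marrow held 59.0% IgA cells and spleen 23.9%.

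**Figure D3:**
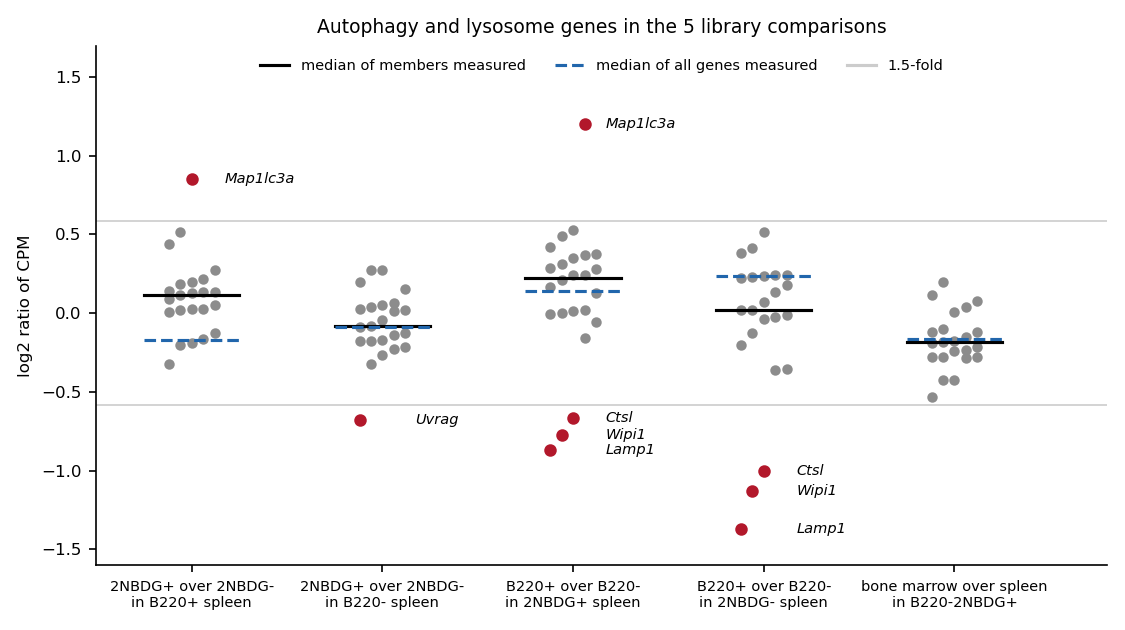
Log2 ratio of CPM (vertical axis) of the genes with enough UMIs in each of the 5 library comparisons; each point is a gene and red points lie past 1.5-fold (grey lines). Solid bars are the medians of these genes and dashed bars the medians of all genes compared. With cycling cells included, as here, medians differ most in the comparisons of the B220+2NBDG- library with its neighbours.

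The total by which UMIs are divided moves all genes at once, because immunoglobulin and Jchain transcripts take a large and unequal share. Dividing by all UMIs shifted the median log2 ratio of all genes by -0.62 and 0.19 for 2NBDG (B220+ and B220- cells), by -0.25 and 0.58 for B220 (2NBDG+ and 2NBDG- cells), and by -0.10 for bone marrow. For 2NBDG in B220+ cells the median of the listed genes then became -0.46, against -0.79 for all genes, and for B220 in 2NBDG- cells it became 0.55, against 0.81. Over all genes, the 144 higher and 573 lower calls of 2NBDG in B220+ cells became 17 and 1820 with all UMIs, 310 and 347 without Jchain in the total, and 192 and 405 with TMM factors. For 2NBDG in B220- cells 73 and 192 became 69 and 57, 139 and 201, and 98 and 154 in the same order of totals. For B220 in 2NBDG+ cells 335 and 140 became 71 and 133, 234 and 273, and 220 and 184, and for B220 in 2NBDG- cells 842 and 256 became 1796 and 46, 451 and 581, and 588 and 328. For bone marrow 78 and 220 became 37 and 145 with all UMIs, 119 and 225 without Jchain, and 121 and 101 with TMM factors. Lamp1, Wipi1 and Ctsl stayed lower in B220+ cells under each of these totals, at log2 ratios between -0.47 (Ctsl, all UMIs, 2NBDG- cells, under 1.5-fold) and -1.60 (Lamp1, without Jchain, 2NBDG- cells). Map1lc3a stayed higher in B220+2NBDG+ cells, at 0.26 with all UMIs against B220+2NBDG- cells, which is under 1.5-fold, and at 0.95 against B220-2NBDG+ cells.

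Whether these genes differed between cells of different antibody class was tested within libraries. UMIs were summed per library over cells called IgG (74 to 552 cells per library), IgA (77 to 553) and IgM (293 to 1076), and the sums were compared by edgeR's quasi-likelihood test with the library as a block. Of the 37 genes 31 could be tested; Atg14, Atg9a, Optn, Pik3r4, Ulk1 and Ulk2 had too few UMIs.

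Lamp1 followed the isotype in every library. It averaged 84.8 ± 21.7 CPM in IgA cells and 239 ± 97.0 CPM in IgM cells (SD, n = 5 libraries each), with all 5 libraries lower in IgA cells and no overlap between the isotypes. The share of all genes without such overlap was not counted, here and for Ctsb below. The log2 fold change was -1.36 ± 0.12 (SE; 2.56-fold lower; Benjamini-Hochberg adjusted p 5.5e-08 in edgeR). IgG cells lay between, at 144 ± 49.4 CPM: they were lower than IgM cells (log2 fold change -0.73 ± 0.11, adjusted p 2.4e-04 in edgeR, lower in 5 of 5 libraries) and higher than IgA cells (0.63 ± 0.13, adjusted p 0.00309 in edgeR, higher in 5 of 5 libraries). Values of IgG cells overlapped with those of each other isotype across libraries, and the order IgM, IgG, IgA held within each library. Without the library as a block both IgG calls were lost (adjusted p 0.428 against IgM and 0.573 against IgA cells in edgeR), while that of IgA against IgM cells held.

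Ctsb was lower in IgA cells than in either other isotype. It averaged 403 ± 31.8 CPM in IgA cells and 598 ± 63.4 CPM in IgM cells (SD, n = 5), lower in 5 of 5 libraries and without overlap (log2 fold change -0.47 ± 0.10, adjusted p 0.00146 in edgeR). In IgG cells it averaged 645 ± 96.0 CPM, again higher than in IgA cells in 5 of 5 libraries without overlap (0.52 ± 0.10, adjusted p 9.1e-04 in edgeR). IgG and IgM cells differed by 0.06 ± 0.09 (adjusted p 0.818 in edgeR).

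**Figure D4:**
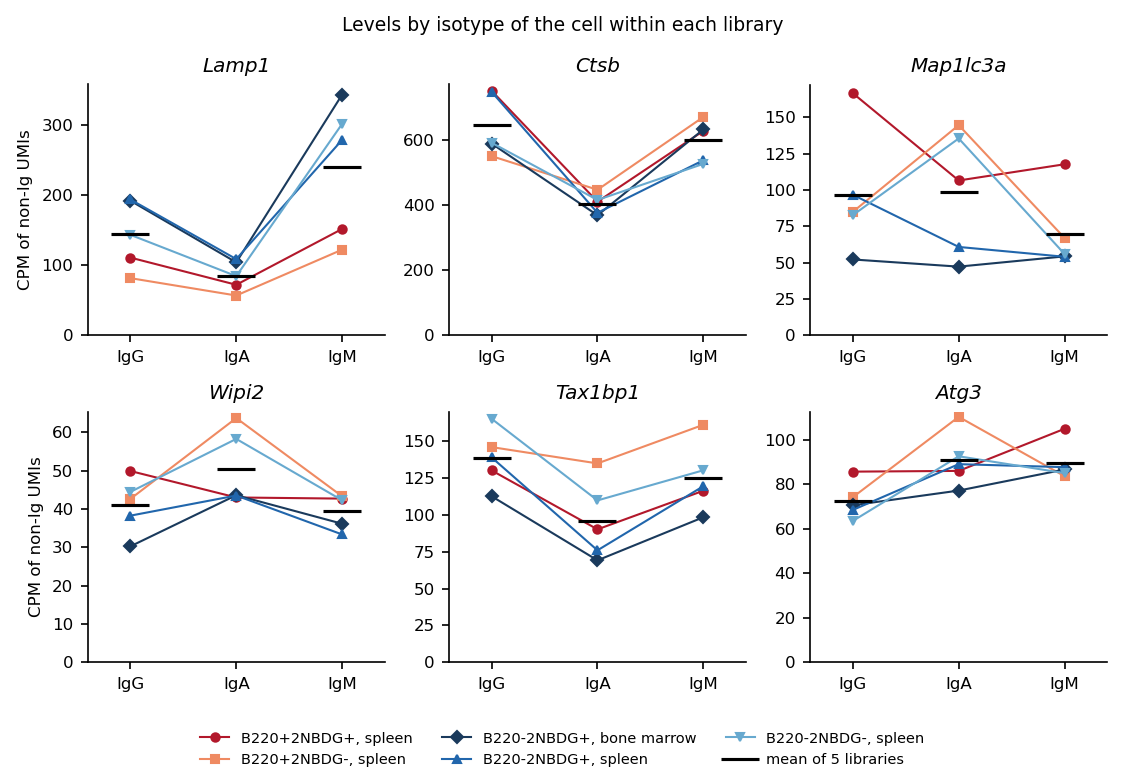
Level of the 6 genes that passed the test in some isotype contrast (vertical axis, CPM of non-immunoglobulin UMIs, from 0) in IgG, IgA and IgM cells; each line is a library and black bars are means of 5 libraries. Lamp1 is lowest in IgA and highest in IgM cells in each library, and Ctsb is lowest in IgA cells in each.

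In IgA against IgM cells, 2 of the 31 genes rose and 2 fell, against 6.27% of all 7945 genes tested higher and 6.85% lower. Beside Lamp1 and Ctsb, the calls were Wipi2, which recruits the conjugation complex to the membrane, and Map1lc3a. Wipi2 averaged 50.5 ± 9.86 CPM in IgA cells and 39.6 ± 4.51 CPM in IgM cells (log2 fold change 0.47 ± 0.12, adjusted p 0.0128 in edgeR, higher in 5 of 5 libraries, values overlapping). Map1lc3a averaged 98.9 ± 43.7 CPM in IgA cells and 69.7 ± 27.4 CPM in IgM cells (0.55 ± 0.16, adjusted p 0.0208 in edgeR). It was higher in 3 of 5 libraries: it had 145 against 66.9 CPM in B220+2NBDG- cells and 136 against 55.8 CPM in splenic B220-2NBDG- cells, but 107 against 118 CPM in B220+2NBDG+ cells and 47.2 against 54.2 CPM in bone marrow. The Map1lc3a call was lost without either 2NBDG- library (adjusted p 0.100 without B220+2NBDG- and 0.169 without B220-2NBDG- in edgeR), and that of Wipi2 without splenic B220-2NBDG+ cells (0.0758) or without bone marrow (0.0643).

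In IgG against IgM cells, 0 of the 31 genes rose and 1, Lamp1, fell by edgeR and by DESeq2, against 2.49% and 3.66% of all genes by edgeR. At an unadjusted p below 0.05 in edgeR, 1 gene was higher and 8 were lower. At that level 2 were higher and 6 lower in IgA against IgM cells, and 3 and 5 in IgG against IgA cells. The share of all genes at that unadjusted level was not counted, here and for the lists below. In IgG against IgA cells, 3 rose and 1 fell, against 4.93% and 4.66% of all genes. Tax1bp1 averaged 139 ± 19.4 CPM in IgG cells and 96.0 ± 26.7 CPM in IgA cells (log2 fold change 0.39 ± 0.11, adjusted p 0.0280 in edgeR, higher in 5 of 5 libraries). Atg3 averaged 72.5 ± 8.33 CPM in IgG cells and 91.1 ± 12.2 CPM in IgA cells (-0.45 ± 0.12, adjusted p 0.0174 in edgeR, lower in 5 of 5 libraries). Both sets of values overlapped. The Tax1bp1 call was lost when any library but B220+2NBDG- was left out (adjusted p 0.0774 to 0.136 in edgeR), and the Atg3 call without B220+2NBDG- (0.0677) or splenic B220-2NBDG+ cells (0.109).

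The remaining genes did not pass in any contrast. Lamp2, the relative of Lamp1, averaged 184 ± 19.8 CPM in IgA cells and 231 ± 25 CPM in IgM cells, with 5 of 5 libraries lower in IgA cells and an adjusted p of 0.154 in edgeR. Sqstm1 averaged 125 ± 29.8 CPM in IgA cells and 128 ± 10.4 CPM in IgM cells (adjusted p 0.804 in edgeR), and Map1lc3b 729 ± 121 and 713 ± 133 CPM (adjusted p 0.415). The median log2 fold change of the 31 genes was 0.10 for IgA against IgM, -0.08 for IgG against IgM and -0.11 for IgG against IgA. The same medians over all genes tested were -0.0015, 0.0034 and -0.0041.

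The summed macrophage list lay at 33.6 to 55.5 CPM in IgG cells, 13.2 to 30.7 CPM in IgA cells and 23.6 to 59.0 CPM in IgM cells, with 0 to 30 UMIs per sum from C1qa, C1qb, C1qc, Csf1r and Adgre1 together. The list was thus lower in IgA than in IgM cells in each library, as Lamp1 and Ctsb were; its part in these differences was not tested. The cycling list was highest in B220+2NBDG- cells of every isotype, at 2294 CPM in IgG cells, 1800.2 in IgA cells and 1529.5 in IgM cells. Without cells called cycling, Lamp1 and Ctsb kept all their isotype calls. Lamp1 overlaps Grtp1 and Ctsb overlaps Fdft1 on the other strand, Map1lc3b overlaps Gm20388 on its own strand, and whether counting used the strand is not given in the sources used here.

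A further 163 genes of the pathway in 7 lists were read the same way. Of all genes tested by edgeR, 6.27% rose and 6.85% fell in IgA against IgM cells. In IgG against IgM cells 2.49% rose and 3.66% fell, and in IgG against IgA cells 4.93% rose and 4.66% fell. All 17 subunits of the V-ATPase, the proton pump that acidifies the lysosome, were tested between isotypes: 0 rose or fell in IgA against IgM or IgG against IgM cells, and 1 (Atp6ap1, log2 fold change 0.40 ± 0.12, adjusted p 0.0345 in edgeR) rose in IgG against IgA cells. For IgA against IgM and IgG against IgM cells, 3 and 0 subunits had an unadjusted p below 0.05, and DESeq2 called 1 (Atp6v0c, lower) and 0. Of 13 autophagy receptors outside the 37, 1 (Tex264, a receptor for endoplasmic reticulum, -0.45 ± 0.13, adjusted p 0.0438 in edgeR) fell in IgG against IgM cells, a call that DESeq2 did not make. In IgA against IgM and IgG against IgA cells 0 receptors were called by edgeR or DESeq2, with 2 and 1 at an unadjusted p below 0.05.

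Other lysosomal enzymes differed between isotypes as follows. Of 15 other proteases and inhibitors, 2 rose and 6 fell in IgA against IgM cells (median log2 fold change -0.35), where 6.27% of all genes rose and 6.85% fell, led by Cpq, a carboxypeptidase (-3.91 ± 0.27, adjusted p 1.4e-09 in edgeR), Ctss, cathepsin S (-1.60 ± 0.15, adjusted p 7.8e-08), and Lgmn, legumain (-1.25 ± 0.12, adjusted p 1.8e-07). Of 31 other hydrolases and cofactors, 3 rose and 11 fell (median -0.28), led by Acp5, an acid phosphatase, which rose (1.66 ± 0.16, adjusted p 1.3e-07), and by Hexa, a hexosaminidase subunit (-1.37 ± 0.16, adjusted p 2.3e-06), and Npc2, a cholesterol carrier (-0.61 ± 0.09, adjusted p 5.7e-05), which fell. In IgG against IgA cells 5 proteases rose and 2 fell, and 6 hydrolases rose and 2 fell, against 4.93% and 4.66% of all genes. Lgmn (1.49 ± 0.13, adjusted p 4.3e-08 in edgeR), Ctss (1.34 ± 0.15) and Cpq (2.94 ± 0.34) led the proteases, and Grn, the progranulin gene (2.17 ± 0.25, adjusted p 3.3e-06), and Acp5 (-1.59 ± 0.19) the hydrolases. In IgG against IgM cells 1 protease rose and 2 fell, and 2 hydrolases rose and 3 fell, among them Hexa (-1.18 ± 0.15, adjusted p 2.9e-05 in edgeR), against 2.49% and 3.66% of all genes.

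Of 23 regulators of mTORC1, AMPK and Tfeb, 1 rose and 1 fell in IgA against IgM cells, 1 rose and 2 fell in IgG against IgM cells, and 0 rose and 1 fell in IgG against IgA cells. Of all genes, 6.27% rose and 6.85% fell, 2.49% and 3.66%, and 4.93% and 4.66% in the same order. These shares also stand beside the core, fusion, membrane and sorting genes given next. Foxo1, a transcription factor that can induce autophagy genes, rose in IgA against IgM cells (0.61 ± 0.15, adjusted p 0.00794 in edgeR) and fell in IgG against IgA cells (-0.78 ± 0.18, adjusted p 0.00592). Rraga, a small GTPase that brings mTORC1 to the lysosome, fell in IgA (-0.51 ± 0.14, adjusted p 0.0131) and in IgG (-0.67 ± 0.13, adjusted p 0.00243) against IgM cells. Ddit4, an inhibitor of mTORC1, rose in IgG against IgM cells (0.98 ± 0.20, adjusted p 0.00311) and Flcn fell (-0.95 ± 0.26, adjusted p 0.0298), of which DESeq2 did not call Flcn. Of 22 other core and fusion genes, Tecpr1 (0.62 ± 0.18, adjusted p 0.0203) and Atg2a (0.90 ± 0.27, adjusted p 0.0288) rose and Atg4c (-1.42 ± 0.45, adjusted p 0.0369) fell in IgA against IgM cells, of which DESeq2 called Tecpr1 alone. In IgG against IgM cells edgeR and DESeq2 called 0 of them, with 2 at an unadjusted p below 0.05, and in IgG against IgA cells Atg2a fell (-1.11 ± 0.33, adjusted p 0.0316 in edgeR) by edgeR but not by DESeq2. Of 18 membrane and sorting genes, 1 fell in IgA against IgM cells (Laptm4b, -1.67 ± 0.39, adjusted p 0.00488 in edgeR) and 3 fell in IgG against IgM cells. These were Laptm5, a lysosomal membrane protein of blood cells (-1.32 ± 0.25, adjusted p 0.00141), Pip4p1 (-0.59 ± 0.15, adjusted p 0.0183) and Laptm4b (-1.22 ± 0.35, adjusted p 0.0389), the last not called by DESeq2. In IgG against IgA cells 1 of the 18 rose, Cd68 (0.85 ± 0.24, adjusted p 0.0274 in edgeR), which is also in the macrophage list.

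Between libraries, the counts at 1.5-fold in the other pathway lists are read against the shares over all genes. Among 2NBDG- cells, where 21.0% of all genes were higher in B220+ cells and 6.37% lower, 4 of 12 proteases and inhibitors were higher and 4 lower in B220+ than in B220- cells: Lgmn had 411 against 219 CPM and Ctsh, cathepsin H, 229 against 123 CPM, while Cpq had 3.76 against 42.6 CPM and Ctss 655 against 1426 CPM. Of 25 hydrolases there, 4 were higher, such as Ifi30, a thiol reductase (62.0 against 23.5 CPM), and 4 lower, such as Ppt1, a thioesterase (119.8 against 225 CPM). Of 16 V-ATPase subunits, 3 were higher there (Atp6ap2, Atp6v0d1 and Atp6v1a) and 0 lower, a share near that of all genes. Among 2NBDG+ cells (9.02% of all genes higher, 3.77% lower), 3 of 13 proteases were higher and 2 lower in B220+ cells, and 6 of 25 hydrolases higher and 2 lower, with Cpq again lower (13.5 against 45.8 CPM) and Ifi30 again higher (28.3 against 12.7 CPM). There 1 of 12 regulators (Ddit4) and 1 of 15 V-ATPase subunits (Atp6v0a2) were higher, and 0 of 8 receptors and 0 of 11 membrane and sorting genes were called. Among 2NBDG- cells 1 of 8 receptors (Tex264) and 1 of 11 membrane and sorting genes (Scarb2) were lower. Of 11 regulators 0 were called there. Of 8 core and fusion genes, 1 (Tmem41b) was higher and 0 lower in B220+ cells, among 2NBDG+ and among 2NBDG- cells alike.

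For 2NBDG uptake in B220+ cells (3.62% of all genes higher, 14.4% lower), 1 of 11 proteases and inhibitors was higher and 3 lower, and 2 of 25 hydrolases were higher and 2 lower. In B220- cells (1.98% and 5.21%) 1 of 13 and 1 of 23 were higher and 0 lower. Of 8 core and fusion genes, 1 (Tmem41b) was lower with 2NBDG uptake, in B220+ and in B220- cells alike. In B220+ cells 1 of 8 receptors (Rtn3) was lower. There 1 of 12 regulators (Ddit4) and 1 of 11 membrane and sorting genes (Scarb2) were higher. In B220- cells 1 of 11 membrane and sorting genes (Laptm5) was lower, and 0 of 8 receptors and 0 of 11 regulators were called. V-ATPase subunits had 0 calls in either. In bone marrow against splenic B220-2NBDG+ cells (2.24% and 6.31%), 1 of 13 proteases was higher and 3 lower: Lgmn had 110.1 against 204 CPM and Ctsc, cathepsin C, 53.5 against 92.9 CPM, while Ctsw had 55.5 against 35.2 CPM. Cd68, which is also in the macrophage list, had 37.2 CPM in bone marrow and 21 CPM in spleen. Of 12 membrane and sorting genes compared there, 1 (Cd68) was higher and 1 (Slc17a5) lower. Of 6 core and fusion genes, 8 receptors, 10 regulators and 14 V-ATPase subunits, 0 were called for bone marrow. Rnaset2b, an RNase with a near-identical neighbouring copy, was among the calls of all 5 comparisons. It had 66.2 and 148 CPM in the B220+2NBDG- and splenic B220-2NBDG+ libraries and 32.4 to 36.5 CPM in the others. Those libraries are the ones set apart by the 20 genes described above, of which Rnaset2b is not one. It was the only hydrolase called for 2NBDG in B220- cells and for bone marrow. How reads were divided between the copies is not given in the sources used here.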

How the data were processed

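The deposited tables hold raw UMI counts per gene and cell barcode, as whole numbers, 1 table per sample. Cell Ranger 2.1 and GRCm38 were used by the authors, per the submitters' processing notes; their annotation, barcode filter and strand setting were not given in the sources used here. Gene names, coordinates and 266 immunoglobulin genes were taken from GENCODE M21, which held 32655 of the 33456 gene identifiers. Because a 3' library counts transcript ends, genes sharing an end cannot be separated.

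All barcodes were kept except 16 with at least 5 UMIs of 6 T cell genes, which left 5460 cells; no doublet caller was run. An isotype was called from at least 10 heavy-chain UMIs with at least 70% from 1 gene (5393 cells). Cells with a smaller share from other heavy-chain genes were thus kept. With 90% in place of 70%, IgG cells of the B220+2NBDG+ library fell from 552 to 214 and its IgA cells from 97 to 46. In bone marrow IgG cells fell from 84 to 44. Cycling cells were called from at least 3 UMIs of 20 cycling genes after thinning to 1000 UMIs. UMIs were summed per library and divided by its non-immunoglobulin UMIs. Ratios between libraries carry exact conditional binomial intervals and levels exact Poisson intervals (95%, counting error only), with counts under 3 UMIs raised to 3 and no p-value.

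Isotype sums of at least 20 cells were compared with edgeR 4.0.16 (R 4.3.3): TMM, filterByExpr, the library as a block, quasi-likelihood test, Benjamini-Hochberg adjustment over all genes at 0.05. The isotypes are paired because the sums come from the same libraries. The labels do not state whether different libraries held different animals, and p-values cover only the spread between these 5 libraries, which may be technical. DESeq2 1.42.0, other totals, filters, cell subsets and left-out libraries were tried as alternatives. The calculations were tested on simulated data.

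The 37 genes and the 7 lists of other pathway genes were chosen with earlier results of these data known. Named with values are genes called in some comparison and 17 fixed ones such as Sqstm1 and Tfeb. From the lists, up to 3 called genes per contrast are named. Genes named for the highest or lowest ratio below 1.5-fold, and Nbr1, Optn, Atg101, Rb1cc1, Atg13, Wdr45, Tex264 and DESeq2's Atp6v0c outside this rule, were chosen after their values were seen. Promoter sequences are from RefSeq (GRCm38.p6).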

Additional observations from a re-analysis of the deposited data

Results flagged for a closer look

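Of 36 sets of 5 libraries examined for a library far from the rest, 2 held one. The sets were levels within an isotype of genes already called in some comparison, and log2 ratios of the isotype calls. A rate of about 1 in 20 holds for sets chosen without their values, so it cannot be used here. Map1lc3a had itself been called for its level in the library that is flagged. Map1lc3a in IgM cells had 118 CPM in the B220+2NBDG+ library, against 54.0 to 66.9 CPM in the other 4, a gap of 0.797 of the whole range where 0.71 is the 95% limit for 5 values. Atg3 in IgM cells had 105 CPM in the same library, against 83.7 to 87.7 CPM in the other 4, a gap of 0.809 of the range.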

How the results depend on the processing

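The counts of genes at least 1.5-fold apart rest on 1 library per gate and on a round threshold. At 2-fold, 0 genes were called for 2NBDG in B220+ or B220- cells and 1 (Map1lc3a) for B220 in 2NBDG+ cells, while all 3 calls of B220 in 2NBDG- cells (Lamp1, Wipi1 and Ctsl) remained. With all UMIs as the total the counts were 3 (all lower) for 2NBDG in B220+ cells, 0 in B220- cells and 10 (8 higher, 2 lower) for B220 in 2NBDG- cells. For 2NBDG in B220+ cells the count was 4 without Jchain in the total and 2 with TMM factors. With no CPM minimum and 20 UMIs, the counts were 4 and 2 for 2NBDG in B220+ and B220- cells, 7 each for B220 in 2NBDG+ and 2NBDG- cells and 1 for bone marrow, since more low genes entered. In IgM cells alone they were 3 for 2NBDG in B220+ cells and 2 for bone marrow (Atg13 and Wdr45, both lower). Other counts were within 1.5 times the reported ones, but a like count can hold other genes. For B220 in 2NBDG+ cells the count stayed 4 in IgM cells alone, with 2 higher and 2 lower. There Uvrag entered as higher and Ctsl was no longer called.

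Ratios within isotypes were added after the data were seen. Direction reversed in small isotype groups: Map1lc3a for 2NBDG in B220+ IgA cells (log2 ratio -0.44), Ctsl for B220 in 2NBDG+ IgA cells (0.26) and in 2NBDG- IgG cells (0.10), and Wipi1 for B220 in 2NBDG- IgA cells (0.10). The cause was not tested.

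Without the replicate block that pairs the isotypes of a library, edgeR called 3 genes in IgA against IgM, 0 in IgG against IgM and 1 (Ctsb) in IgG against IgA cells, and 394, 64 and 307 of all genes, against 1042, 489 and 762 with it. Ctsb kept its calls in each of 11 alternatives and Lamp1 that of IgA against IgM cells. The calls of Map1lc3a (adjusted p 0.430 in edgeR), Atg3 (0.0553) and Tax1bp1 (0.0924) were lost without the block, those of Wipi2 (0.0817) and Atg3 (0.0694) without a filter on low counts, and that of Tax1bp1 with 90% heavy-chain dominance (0.0692). Leaving out 1 library at a time gave 3 to 4, 1 and 3 to 4 calls in the same contrasts. No paired analysis was possible because each gate has 1 library, for the comparisons between libraries. Depth limits Ulk1, Ulk2, Optn, Atg9a, Atg14 and Pik3r4, which had too few UMIs for the isotype tests.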
